A study of Mus musculus with 16 samples.

Results

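The heat shock and unfolded protein response genes were followed in mouse brain cells sorted by a reporter tied to parvalbumin and labelled as parvalbumin interneurons. Members were taken from a list of 32 gene symbols that covers chaperones of the cytosol, the mitochondrion and the endoplasmic reticulum, haem oxygenase, and the transcription factors and targets of the Atf4-Ddit3 branch. Of these, 26 had a transcript cluster annotated with that gene alone, out of 30061 genes with such a cluster in the whole table, and 25 were among the 20040 genes tested. Trib3, a pseudokinase induced by Ddit3, had a mean level under the filter of 5.53 on the log2 scale. Hspa1b, Hspa8, Dnaja1 and Pdia4 were covered on their own chromosomes only by clusters annotated with several genes, and Hsf1 and Hsp90ab1 were not analysed here.

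Red fluorescent cells were sorted from the dorsal striatum and from the motor and somatosensory cortex of C57BL/6J mice labelled male and aged 30 days. In the PV-tdTomato/+ mice, the reporter was driven by parvalbumin sequences with no Cre. In the PVCre/+; tdTomato/+ mice, called PVCre below, Cre made in parvalbumin cells switched the reporter on, so any cell with past or present Cre can carry the label. Each of the 4 groups (2 lines by 2 regions) had 4 arrays, each array held the RNA of 2000 cells pooled from 2 to 4 mice, and no agent was given in any group. Levels are deposited log2 values of an Affymetrix mouse transcriptome array.

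The heat shock response is driven by heat shock factors, which bind repeats of the heat shock element in the promoters of cytosolic and mitochondrial chaperones when unfolded protein builds up. The unfolded protein response is its counterpart in the endoplasmic reticulum: the sensors Atf6, Ern1 and Eif2ak3 raise lumenal chaperones such as Hspa5 through the endoplasmic reticulum stress element and, through Atf4, genes of amino acid supply and Ddit3, a factor linked to cell death. Dissociation of brain tissue is itself known to induce stress genes, and neurons are known to induce the classical heat shock genes weakly compared with glia.

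Both lines hold cells that were dissociated and sorted, and none of the 4 groups is an undissociated reference, so every line difference below is between sorted pools. The 2 lines also differed across the transcriptome. Of the 20040 genes tested, 53.5% passed the threshold (limma, Benjamini-Hochberg adjusted p under 0.05) between the lines in striatum and 53.6% in cortex, and the median line difference of all genes was -0.23 in striatum and -0.23 in cortex. Positive control probe sets lay 4.16 to 4.85 above negative ones in the PV-tdTomato arrays and 3.08 to 3.93 in the PVCre arrays. Pvalb, which encodes parvalbumin and defines the sorted cells, lay at 6.69 to 8.40 in 6 of the pools and at 10.20 to 12.48 in the other 10; the 6 were replicates 3 and 4 from PV-tdTomato mice in striatum and in cortex, and replicates 2 and 4 of PVCre cortex. The markers thus go against the label in part: the mean of 12 parvalbumin interneuron markers was 6.81 in PVCre cortex replicate 4 and 10.60 in replicate 3. That of 11 oligodendrocyte markers was 15.18 to 15.55 across PVCre cortex, so it was not particular to replicate 4. Levels of different gene lists cannot be compared with each other. Of 12 parvalbumin interneuron markers, 0 rose and 2 fell (16.7%) in PVCre striatum, against 18.1% of all genes higher and 35.4% lower. In PVCre cortex 0 rose and 5 fell (41.7%), against 19.0% higher and 34.7% lower. The falls were thus not particular to these markers. In pools of sorted cells, fewer cells of a type and less RNA per cell cannot be told apart.

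Promoter sequences are shown for members that share a response element and yet were measured at different line differences. They come from RefSeq on GRCm38.p6, in windows from 250 bases before to 50 bases after a gene's start, and each is written along the gene's strand with the matched letters in capitals. The endoplasmic reticulum stress element was searched on both strands as CCAAT followed, after 9 bases of any kind, by CCACG. It was found in 39 of 32851 promoters (0.119%) and in 3 of the 27 members with a promoter in the table, which are Hspa5 (chr2:34772005-34772063, plus strand), Calr (chr8:84847055-84847113, minus strand) and Hsp90b1 (chr10:86705523-86705666, minus strand, with 2 matches).
Hspa5: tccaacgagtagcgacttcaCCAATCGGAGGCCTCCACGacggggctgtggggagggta
Calr: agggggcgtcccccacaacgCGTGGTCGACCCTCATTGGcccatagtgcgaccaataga
Hsp90b1: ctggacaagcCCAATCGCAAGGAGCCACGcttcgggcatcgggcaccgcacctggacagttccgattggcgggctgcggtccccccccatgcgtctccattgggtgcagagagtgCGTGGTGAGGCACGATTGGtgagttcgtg

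The heat shock element was searched on both strands as GAA, TTC and GAA, with 2 bases of any kind between them. It was found in 198 of 32851 promoters (0.603%), which belong to 179 of 27025 genes (0.662%), and in 3 members. Hspe1 and Hspd1 are neighbours transcribed in opposite directions, and the bases shown (chr1:55088039-55088096, Hspe1's plus strand), with 2 overlapping matches, lie in the promoter window of both. In Hsph1 the match lies 37 to 49 bases after the RefSeq table's start site (chr5:149636288-149636300, minus strand), which is at chr5:149636336, inside the gene's outer start at chr5:149636498.
Hspe1: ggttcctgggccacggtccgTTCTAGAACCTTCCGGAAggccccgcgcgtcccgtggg
Hsph1: TTCTGGAAAGTTC

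The core shared by Atf4 sites, TGATGNAA, searched on both strands, is shorter and more frequent, with 1304 of 32851 promoters (3.97%) and 1219 of 27025 genes (4.51%). It was found in 4 members, Chac1 (chr2:119351039-119351066, plus strand), Herpud1 (chr8:94386307-94386334, plus strand), Asns (chr6:7693215-7693242, minus strand) and Trib3. A match is a run of letters in a window, and binding was not measured.
Chac1: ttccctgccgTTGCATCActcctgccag
Herpud1: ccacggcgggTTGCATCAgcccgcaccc
Asns: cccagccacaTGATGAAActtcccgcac

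Between the lines, heat shock and unfolded protein response genes did not move one way. In striatum, 5 members rose in PVCre and 6 fell, which is 11 of 25 (44%) against 53.5% of all genes (18.1% higher and 35.4% lower). In cortex, 6 rose and 3 fell, which is 9 of 25 (36%) against 53.6% (19.0% higher and 34.7% lower). The members' share called was thus below that of all genes in both regions. Arrays of the lines did not overlap for 10 members in striatum (5 higher, 5 lower), against 50.3% of all genes (16.9% higher and 33.5% lower). In cortex they did not overlap for 8 (5 higher, 3 lower), against 47.1% (17.2% higher and 29.9% lower). Their median line difference was -0.06 in striatum and -0.27 in cortex. Quantile normalization of the arrays moved the median of all genes from -0.23 to -0.06 in striatum and to -0.02 in cortex, and the share of higher calls among all genes from 33.9% to 45.6% and from 35.4% to 49.5%. With it, the members' median turned to 0.19 in striatum and 0.12 in cortex, with 6 members higher and 3 lower in striatum and 5 higher and 3 lower in cortex. Hspb1, Dnajb1, Hspa5 and Ddit3 rose, and Hsph1, Hsp90b1 and Sesn2 fell, in both regions and on both scales.

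**Figure D1:**
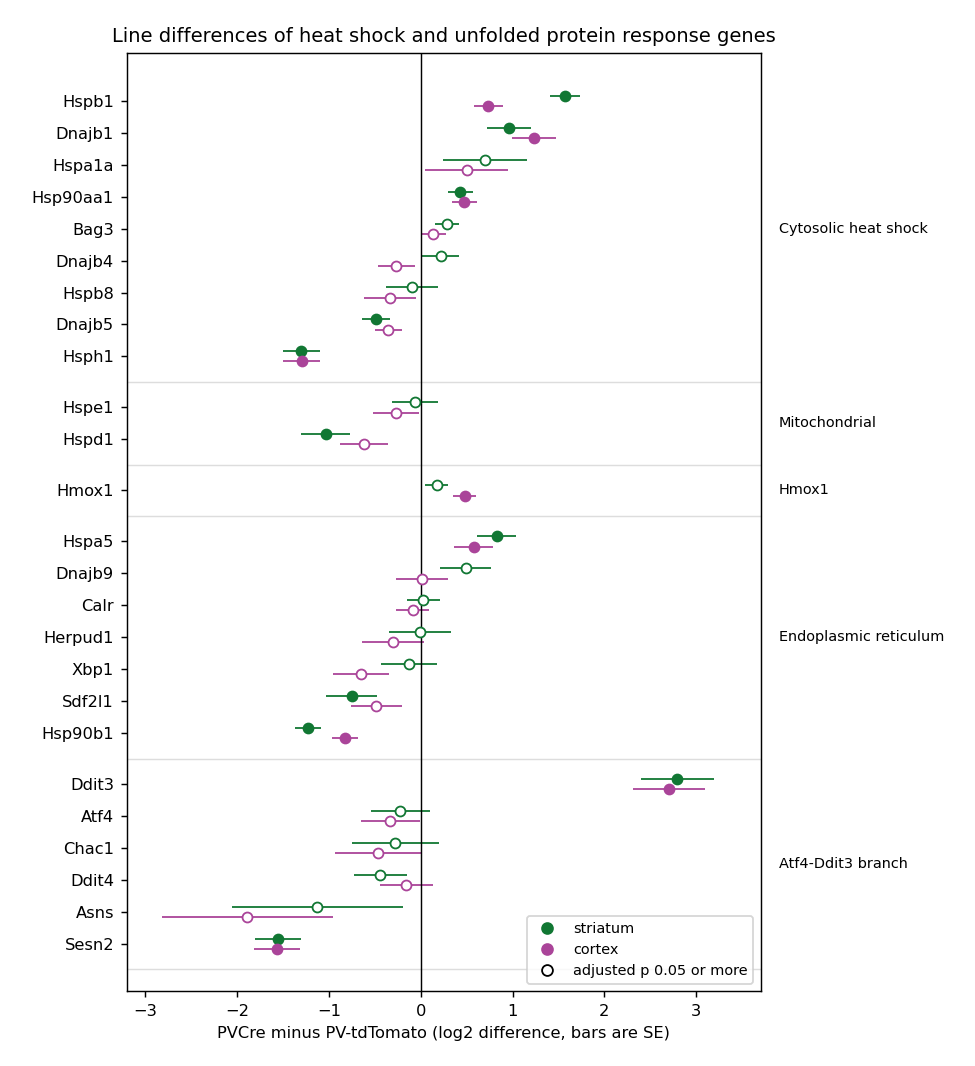
Line differences (PVCre minus PV-tdTomato, log2) of the 25 members tested, by branch, in striatum and cortex; bars are standard errors and filled points passed the threshold. The cytosolic, endoplasmic reticulum and Atf4-Ddit3 branches hold points on both sides of 0, both mitochondrial members lie below it, and the cortical points run from -1.89 for Asns to 2.71 for Ddit3.

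Among the 9 cytosolic heat shock members tested, 3 rose and 2 fell in striatum, and 3 rose and 1 fell in cortex. Of all genes, 18.1% rose and 35.4% fell in striatum, and 19.0% rose and 34.7% fell in cortex. Hspb1 (chr5:135887919-135889563) encodes the small heat shock protein Hsp27, which holds unfolded protein and binds actin. Its levels were 6.44, 6.37, 6.14 and 6.36 in the 4 PV-tdTomato striatal arrays and 8.39, 7.95, 7.65 and 7.63 in the PVCre striatal arrays. In cortex they were 6.07, 6.35, 6.35 and 6.56 in PV-tdTomato and 7.22, 6.98, 6.92 and 7.17 in PVCre. All 8 PVCre arrays lay above all 8 PV-tdTomato arrays. Hspb1 was 1.58 ± 0.16 (log2 difference ± SE, n = 4 against 4) higher in striatum, a 2.98-fold difference (limma adjusted p = 3.39e-06), and 0.74 ± 0.16 higher in cortex (adjusted p = 0.00161). Its PV-tdTomato levels lay near the top of the range of background probe sets (6.10), so these differences may understate the rise.

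Dnajb1 (chr8:83608175-83612653) encodes the Hsp40 partner that loads client proteins onto Hsp70. Its striatal levels were 8.08, 8.17, 7.46 and 7.21 in PV-tdTomato and 8.87, 8.58, 8.71 and 8.60 in PVCre. The cortical levels were 7.91, 7.77, 7.43 and 7.55 in PV-tdTomato and 9.45, 8.82, 8.29 and 9.02 in PVCre. The groups did not overlap in either region. The rise was 0.96 ± 0.24 in striatum (limma adjusted p = 0.00397) and 1.23 ± 0.24 in cortex (adjusted p = 0.000692). Without the 6 arrays lowest in Pvalb it was 0.57 ± 0.27 in striatum (adjusted p = 0.101) and 1.03 ± 0.31 in cortex (adjusted p = 0.0245), so the striatal call was lost without them.

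Hsp90aa1 (chr12:110691036-110696395), the stress-inducible form of the cytosolic Hsp90 chaperone, was high in every array. It lay at 16.62, 16.64, 16.01 and 16.33 in PV-tdTomato striatum and at 16.79, 16.71, 16.94 and 16.87 in PVCre striatum. In cortex it lay at 16.23, 16.12, 16.04 and 16.36 in PV-tdTomato and at 16.68, 16.49, 16.76 and 16.71 in PVCre. PVCre arrays were the higher ones in both regions without overlap, by narrow margins. The difference was 0.43 ± 0.14 in striatum (limma adjusted p = 0.0159) and 0.47 ± 0.14 in cortex (adjusted p = 0.00912). Quantile normalization ended both calls (adjusted p = 0.429 and 0.0784), and leaving out the 6 arrays lowest in Pvalb ended the striatal one (0.20 ± 0.11, adjusted p = 0.158), as did leaving out PV-tdTomato replicate 3 alone (0.30 ± 0.12, adjusted p = 0.0506). The striatal call was lost under 6 of 20 alternatives. The others were another prior (limma adjusted p = 0.0609), only the arrays compared (0.0504) and the replicate block (0.120). Clusters that pair Hsp90aa1 with a predicted gene gave larger rises, of 1.12 ± 0.19 and 1.10 ± 0.19 with Gm5844 and of 0.68 ± 0.16 and 0.64 ± 0.16 with Gm12346.

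Hsph1 (chr5:149616843-149636498), the Hsp110 chaperone that releases nucleotide from Hsp70, went the other way. Its striatal levels were 14.12, 14.06, 13.67 and 13.92 in PV-tdTomato and 12.17, 12.68, 13.02 and 12.70 in PVCre. The cortical levels were 14.15, 14.05, 13.38 and 13.55 in PV-tdTomato and 12.42, 12.38, 12.77 and 12.38 in PVCre. Every PVCre array was below every PV-tdTomato array. Hsph1 was lower by -1.30 ± 0.20 in striatum (limma adjusted p = 0.000114) and by -1.30 ± 0.20 in cortex (adjusted p = 0.000118), a 2.46-fold difference in each.

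Dnajb5 (chr4:42949867-42959425), a J-domain co-chaperone of the Dnajb1 family, lay at 7.64, 7.48, 7.59 and 7.58 in PV-tdTomato striatum and at 7.20, 6.92, 7.26 and 6.96 in PVCre striatum. Cortical levels were at 7.61, 7.28, 7.44 and 7.55 in PV-tdTomato and at 7.42, 6.88, 7.40 and 6.78 in PVCre. The striatal groups did not overlap and the cortical groups did. It fell in striatum (-0.49 ± 0.15, limma adjusted p = 0.0137) and did not pass the test in cortex (-0.35 ± 0.15, adjusted p = 0.0614), though it did without PV-tdTomato replicate 2 (adjusted p = 0.0464) or PVCre replicate 1 or 3 (0.0257 and 0.0257). Quantile normalization ended the striatal call (-0.24 ± 0.15, adjusted p = 0.194).

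Hspa1a (chr17:34969359-34972156) and Hspa1b (chr17:34956429-34959238) are near-identical neighbours that encode the inducible Hsp70, and probes for one can read the other. The cluster annotated with Hspa1a alone lay at 8.38, 7.36, 5.97 and 6.29 in PV-tdTomato striatum and at 8.12, 8.02, 7.40 and 7.25 in PVCre striatum. Its cortical levels were 7.49, 7.57, 6.42 and 6.60 in PV-tdTomato and 7.60, 7.83, 6.90 and 7.76 in PVCre. The PV-tdTomato arrays spread widely, with replicates 1 and 2 above replicates 3 and 4 in both regions, and the lines overlapped. The differences of 0.70 ± 0.45 in striatum and 0.50 ± 0.45 in cortex did not pass the test (limma adjusted p = 0.211 and 0.366), although without PV-tdTomato replicate 1 the striatal difference was 1.16 ± 0.38 (adjusted p = 0.0228). The sign turned without the 6 arrays lowest in Pvalb, to -0.17 ± 0.35 in striatum (adjusted p = 0.704) and -0.28 ± 0.41 in cortex (adjusted p = 0.595).

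A cluster annotated with both Hspa1b and Hspa1a gave another reading of the pair. It lay at 6.05, 6.22, 5.56 and 6.16 in PV-tdTomato striatum and at 8.59, 8.12, 7.73 and 7.94 in PVCre striatum. Cortical arrays lay at 6.00, 6.42, 5.93 and 6.09 in PV-tdTomato and at 7.96, 8.30, 7.10 and 8.06 in PVCre. No PVCre array reached down to the PV-tdTomato range. In a fit that kept clusters with several genes, it rose by 2.10 ± 0.25 in striatum (limma adjusted p = 1.18e-05, 4.28-fold) and by 1.74 ± 0.25 in cortex (adjusted p = 6.01e-05). Its PV-tdTomato levels lay around the top of the range of background probe sets (6.10), so these differences may understate the rise. The Hspa1a cluster and this one therefore disagree on whether the inducible Hsp70 pair rose, and the deposited values do not say which gene each signal comes from.

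Hspa8 encodes the constitutive Hsc70. The gene lies at chr9:40801276-40805202, and the cluster there is also annotated with 3 snoRNA genes. It lay at 14.06, 14.10, 13.38 and 13.50 in PV-tdTomato striatum and at 14.64, 14.58, 14.91 and 14.79 in PVCre striatum. The cortical arrays were at 13.83, 14.13, 13.60 and 13.85 in PV-tdTomato and at 14.42, 14.07, 14.60 and 14.66 in PVCre. The striatal groups were apart, and in cortex PVCre replicate 2 fell inside the PV-tdTomato range. This cluster rose by 0.97 ± 0.19 in striatum (limma adjusted p = 0.000572) and by 0.58 ± 0.19 in cortex (adjusted p = 0.0163). A second cluster, annotated with Gm15459 and Hspa8, read -0.20 ± 0.18 in striatum (adjusted p = 0.366) and -0.59 ± 0.18 in cortex (adjusted p = 0.0112), so the clusters that name Hspa8 did not share a direction in cortex. Another 4 clusters that name Hspa8 alone are placed on other chromosomes (1, 6 and 14). Fitted as rows of their own, they rose by 0.28 to 0.35 in striatum (limma adjusted p = 0.00844 to 0.0259) and by 0.30 to 0.38 in cortex (adjusted p = 0.00660 to 0.0214). These 4 clusters lay at 19.13 to 19.92, up to the highest value of PVCre striatum replicate 3 (19.92), where RMA can compress differences. Their values followed one another closely across arrays, so they may not be independent readings.

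The remaining cytosolic members did not pass the test between the lines on the deposited scale. Dnaja1, an Hsp40 of the cytosol read together with a microRNA gene, differed by 0.37 ± 0.17 in striatum and 0.27 ± 0.17 in cortex (limma adjusted p = 0.0858 and 0.200). Bag3, the co-chaperone that hands Hsp70 clients to autophagy, differed by 0.28 ± 0.13 and 0.14 ± 0.13 (adjusted p = 0.0847 and 0.389), and passed in striatum without PV-tdTomato replicate 1 (adjusted p = 0.0371), without PVCre replicate 4 (0.0302) and with quantile normalization (0.0322). Dnajb4 and the small heat shock protein Hspb8 had differences between -0.33 and 0.22, and Dnajb4 passed in striatum with quantile normalization (0.61 ± 0.16, adjusted p = 0.00658). Hspb1, Dnajb1 and Hsph1 thus carried the largest cytosolic line differences among clusters with a single gene.

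In the mitochondrion, Hspd1 and Hspe1 encode the partners of the Hsp60-Hsp10 folding chamber and are transcribed from the shared promoter region shown above. Hspd1 (chr1:55077833-55088243) lay at 10.43, 10.41, 9.47 and 9.72 in PV-tdTomato striatum and at 8.49, 9.19, 9.40 and 8.81 in PVCre striatum. Its cortical arrays lay at 10.19, 9.34, 9.42 and 9.73 in PV-tdTomato and at 9.03, 9.07, 9.39 and 8.73 in PVCre. The striatal groups were apart by a small margin (9.47 against 9.40) and the cortical groups overlapped. Hspd1 fell in striatum (-1.03 ± 0.27, limma adjusted p = 0.00456) and did not pass the test in cortex (-0.62 ± 0.27, adjusted p = 0.0634), though it did without PV-tdTomato replicate 2 (adjusted p = 0.0493) or PVCre replicate 3 (0.0447), with array weights (0.0237) and with only the arrays compared (0.0467). Quantile normalization ended the striatal call (-0.62 ± 0.25, adjusted p = 0.0518).

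Hspe1 (chr1:55088148-55091317) differed by -0.06 ± 0.25 in striatum and -0.27 ± 0.25 in cortex (limma adjusted p = 0.850 and 0.374). Without the 6 arrays lowest in Pvalb it fell by -0.58 ± 0.19 in striatum (adjusted p = 0.0288). With quantile normalization the sign turned, to 0.31 ± 0.22 and 0.14 ± 0.22 (adjusted p = 0.260 and 0.607). Whether the difference between them is larger than their error was not tested.

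Hmox1 (chr8:75093618-75100593), which breaks down haem and is a target of the oxidative stress factor Nfe2l2 as well as of heat shock factors, had low levels near those of background probe sets (2.95 to 6.10). It lay at 5.37, 5.41, 5.37 and 5.15 in PV-tdTomato striatum and at 5.62, 5.45, 5.55 and 5.38 in PVCre striatum. In cortex it lay at 5.33, 5.33, 5.54 and 5.59 in PV-tdTomato and at 5.92, 6.21, 5.60 and 5.97 in PVCre. The cortical groups were apart by 5.59 against 5.60, and the striatal groups overlapped. Hmox1 rose in cortex (0.48 ± 0.13, limma adjusted p = 0.00545) and did not pass the test in striatum (0.18 ± 0.13, adjusted p = 0.260). With the replicate number as a block, the cortical adjusted p was 0.0800.

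Of the 7 endoplasmic reticulum members tested, 1 rose and 2 fell in striatum, and 1 rose and 1 fell in cortex. The shares of all genes were 18.1% higher and 35.4% lower in striatum, and 19.0% and 34.7% in cortex. Hspa5 (chr2:34772090-34776529) encodes BiP, the lumenal Hsp70 that holds the stress sensors inactive. Its levels were 11.42, 11.33, 11.03 and 11.14 in PV-tdTomato striatum and 12.46, 11.94, 11.97 and 11.85 in PVCre striatum. In cortex they were 11.12, 11.30, 11.39 and 11.45 in PV-tdTomato and 12.14, 11.15, 12.04 and 12.25 in PVCre. In striatum the lines did not overlap, and in cortex PVCre replicate 2, one of the arrays lowest in Pvalb, lay within the PV-tdTomato range. Hspa5 rose by 0.83 ± 0.21 in striatum (limma adjusted p = 0.00456) and by 0.58 ± 0.21 in cortex (adjusted p = 0.0324). The cortical call was lost under 7 of 20 alternatives: with the replicate block (adjusted p = 0.0950), with only the arrays compared (0.0779), and without PV-tdTomato replicate 1 or 2 (0.0841 and 0.0601) or PVCre replicate 1, 3 or 4 (0.0900, 0.0705 and 0.0989). Without the 6 arrays lowest in Pvalb the cortical rise was 0.88 ± 0.20 (adjusted p = 0.00783).

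Hsp90b1 (chr10:86690841-86705444), which encodes the lumenal Hsp90 named Grp94 and carries the stress element of Hspa5 at 2 places in the window, fell. It lay at 15.85, 15.83, 15.80 and 16.11 in PV-tdTomato striatum and at 14.62, 14.63, 14.68 and 14.75 in PVCre striatum. Cortical levels were at 15.71, 15.40, 15.84 and 16.23 in PV-tdTomato and at 14.94, 14.97, 15.02 and 14.96 in PVCre. Every PVCre array was below every PV-tdTomato array. The difference was -1.22 ± 0.14 in striatum (limma adjusted p = 8.84e-06, 2.34-fold) and -0.82 ± 0.14 in cortex (adjusted p = 0.000248, 1.77-fold).

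Sdf2l1 (chr16:17130138-17132383), a partner of lumenal J-domain proteins, lay at 9.88, 10.15, 9.48 and 9.91 in PV-tdTomato striatum and at 9.18, 9.55, 8.65 and 9.05 in PVCre striatum. Its cortical levels were 9.68, 9.16, 9.84 and 10.67 in PV-tdTomato and 9.53, 9.30, 8.97 and 9.62 in PVCre. The lines overlapped in both regions. It fell in striatum (-0.75 ± 0.28, limma adjusted p = 0.0340), a call lost under 7 of 20 alternatives, and did not pass the test in cortex (-0.49 ± 0.28, adjusted p = 0.153). It passed in cortex without PV-tdTomato replicate 2 (-0.71 ± 0.27, adjusted p = 0.0395) and, narrowly, with array weights (-0.62 ± 0.26, adjusted p = 0.0496). The replicate 1 array of either striatal group was enough to end the striatal call when left out (adjusted p = 0.0627 and 0.0539), as were replicates 2 and 4 of PV-tdTomato (adjusted p = 0.0877 and 0.0663) and 3 and 4 of PVCre (adjusted p = 0.104 and 0.0659). Quantile normalization ended the striatal call as well (-0.34 ± 0.30, limma adjusted p = 0.367).

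Pdia4, a lumenal disulfide isomerase, (chr6:47796141-47813512) was read by a cluster annotated with a microRNA gene as well. That cluster lay at 11.52, 11.75, 12.10 and 12.23 in PV-tdTomato striatum and at 10.81, 10.68, 10.66 and 10.78 in PVCre striatum. Cortical arrays lay at 11.32, 11.30, 12.18 and 12.34 in PV-tdTomato and at 10.70, 10.89, 10.74 and 11.15 in PVCre. It was lower in PVCre without overlap in both regions, by -1.17 ± 0.23 in striatum (limma adjusted p = 0.000691) and -0.92 ± 0.23 in cortex (adjusted p = 0.00398). Calr, a calcium-binding lectin chaperone that also carries the stress element, differed by 0.03 ± 0.18 and -0.09 ± 0.18 (adjusted p = 0.911 and 0.702). The 3 members with that element thus included 1 that rose, 1 that fell and 1 that was not called.

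With all arrays, Dnajb9, Herpud1 and Xbp1 did not pass the test in either region. Dnajb9 encodes a co-chaperone that silences the sensor Ern1, and it lay 0.49 ± 0.28 higher in striatum and 0.02 ± 0.28 higher in cortex (limma adjusted p = 0.156 and 0.964). Herpud1, part of the machinery that sends lumenal proteins for degradation, differed by -0.00 ± 0.34 and -0.30 ± 0.34 (adjusted p = 0.992 and 0.468), and without the 6 arrays lowest in Pvalb it fell in striatum (-0.46 ± 0.15, adjusted p = 0.0275). Xbp1, the factor whose mRNA Ern1 splices, differed by -0.13 ± 0.31 and -0.65 ± 0.31 (adjusted p = 0.745 and 0.0848). A gene-level array value does not show the splicing of Xbp1.

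**Figure D2:**
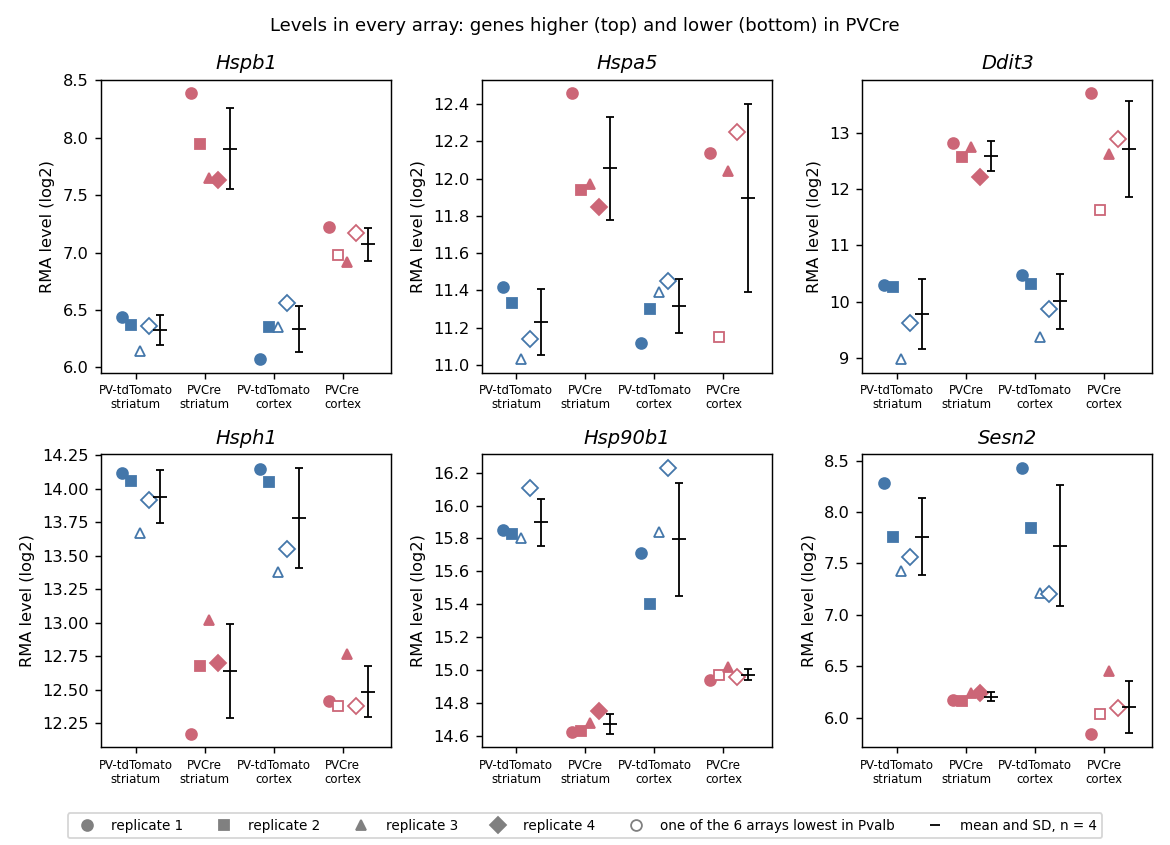
RMA level (log2) of 6 members in each of the 16 arrays, with group mean and SD (n = 4); open symbols are the 6 arrays lowest in Pvalb. Hspb1, Hspa5 and Ddit3 were higher in PVCre and Hsph1, Hsp90b1 and Sesn2 lower; of these 6, Hspa5 in cortex is the one whose arrays overlapped between the lines within a region.

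In the Atf4-Ddit3 branch, 1 of 6 members tested rose and 1 fell in each region. Among all genes 18.1% rose and 35.4% fell in striatum, and 19.0% and 34.7% in cortex. Ddit3 (chr10:127290793-127296291) encodes Chop, a factor induced downstream of Atf4. Its levels were 10.29, 10.26, 8.98 and 9.62 in PV-tdTomato striatum and 12.82, 12.56, 12.75 and 12.21 in PVCre striatum. In cortex they were 10.47, 10.31, 9.38 and 9.87 in PV-tdTomato and 13.70, 11.63, 12.62 and 12.89 in PVCre. All 8 PVCre arrays were above all 8 PV-tdTomato arrays. Ddit3 rose by 2.80 ± 0.39 in striatum (limma adjusted p = 4.77e-05, 6.95-fold) and by 2.71 ± 0.39 in cortex (adjusted p = 6.57e-05, 6.52-fold), the largest differences among the members. Leaving out the 6 arrays lowest in Pvalb gave a rise of 2.31 ± 0.28 and 2.77 ± 0.33 (adjusted p = 0.000307 and 0.000361).

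A second cluster that names Ddit3 alone has no chromosome in the annotation and gave a weaker reading. It lay at 11.21, 11.44, 9.21 and 10.51 in PV-tdTomato striatum and at 12.02, 11.63, 11.57 and 11.31 in PVCre striatum. In cortex it lay at 11.72, 11.21, 10.15 and 10.70 in PV-tdTomato and at 13.11, 10.72, 11.92 and 11.69 in PVCre. The lines overlapped in both regions. Its differences of 1.04 ± 0.52 and 0.92 ± 0.52 were positive but did not pass the test (limma adjusted p = 0.105 and 0.148), so the call of Ddit3 rests on the cluster at its own locus.

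Atf4 (chr15:80255184-80257545), the factor whose translation rises when the eIF2 kinases are active, did not follow Ddit3. Its levels were 10.63, 10.81, 9.54 and 9.83 in PV-tdTomato striatum and 10.06, 10.02, 10.03 and 9.82 in PVCre striatum. In cortex they were 10.97, 11.16, 9.97 and 9.86 in PV-tdTomato and 10.19, 9.72, 10.54 and 10.18 in PVCre. PV-tdTomato replicates 1 and 2 were above every PVCre array, whereas replicates 3 and 4, which were low in Pvalb, lay inside the PVCre range of their region or, for striatal replicate 3, below it. Over all arrays the difference was -0.22 ± 0.32 in striatum and -0.33 ± 0.32 in cortex (limma adjusted p = 0.590 and 0.402). Without the 6 arrays lowest in Pvalb, Atf4 fell by -0.74 ± 0.14 in striatum (adjusted p = 0.00259) and by -0.70 ± 0.16 in cortex (adjusted p = 0.00869), with 2 PV-tdTomato arrays left in each region. With quantile normalization the sign turned, to 0.19 ± 0.29 and 0.12 ± 0.29 (adjusted p = 0.618 and 0.755).

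Sesn2 (chr4:132492804-132510456), a stress-induced inhibitor of the growth kinase mTORC1 and a known Atf4 target, fell. It lay at 8.28, 7.76, 7.43 and 7.56 in PV-tdTomato striatum and at 6.17, 6.16, 6.24 and 6.24 in PVCre striatum. The cortical arrays were at 8.43, 7.84, 7.21 and 7.20 in PV-tdTomato and at 5.84, 6.03, 6.45 and 6.09 in PVCre. No PVCre array reached the PV-tdTomato range. The difference was -1.55 ± 0.25 in striatum (limma adjusted p = 0.000149, 2.94-fold) and -1.57 ± 0.25 in cortex (adjusted p = 0.000142, 2.96-fold). PVCre levels lay around the top of the background range (6.10), so these folds may understate the fall.

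Asns, the enzyme that makes asparagine and a standard readout of Atf4 activity, varied most between replicates. It lay at 12.29, 12.36, 10.04 and 10.79 in PV-tdTomato striatum and at 8.94, 10.68, 10.91 and 10.46 in PVCre striatum. Its cortical arrays lay at 12.66, 11.97, 10.18 and 10.81 in PV-tdTomato and at 10.04, 8.46, 12.34 and 7.22 in PVCre. Highest were PV-tdTomato replicates 1 and 2 of both regions and PVCre cortex replicate 3, and lowest was PVCre cortex replicate 4, low in Pvalb as well. The differences of -1.12 ± 0.93 and -1.89 ± 0.93 did not pass the test (limma adjusted p = 0.328 and 0.101). Without the 6 arrays lowest in Pvalb the striatal difference was -2.08 ± 0.68 (adjusted p = 0.0285) and the cortical one -1.13 ± 0.79 (adjusted p = 0.268). Without PVCre cortex replicate 3 alone, Asns fell in cortex (-2.83 ± 0.79, adjusted p = 0.00844).

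Chac1, which degrades glutathione and is induced through Atf4, ranged from 6.17 to 7.90 in the PV-tdTomato arrays, with replicates 1 and 2 above 3 and 4 in both regions, and from 5.91 to 7.46 in the PVCre arrays. Its differences of -0.27 ± 0.47 and -0.46 ± 0.47 were not called (limma adjusted p = 0.645 and 0.422). Ddit4, an mTORC1 inhibitor, had the opposite order in PV-tdTomato, with replicates 3 and 4 above 1 and 2, and differences of -0.44 ± 0.29 and -0.16 ± 0.29 (adjusted p = 0.218 and 0.666). In cortex Ddit4 read -0.57 ± 0.23 with array weights (adjusted p = 0.0439), 0.06 ± 0.27 with quantile normalization (adjusted p = 0.867) and 0.33 ± 0.22 without the 6 arrays lowest in Pvalb (adjusted p = 0.248). Trib3 lay between 4.84 and 5.22 in all 16 arrays, within the range of background probe sets.

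**Figure D3:**
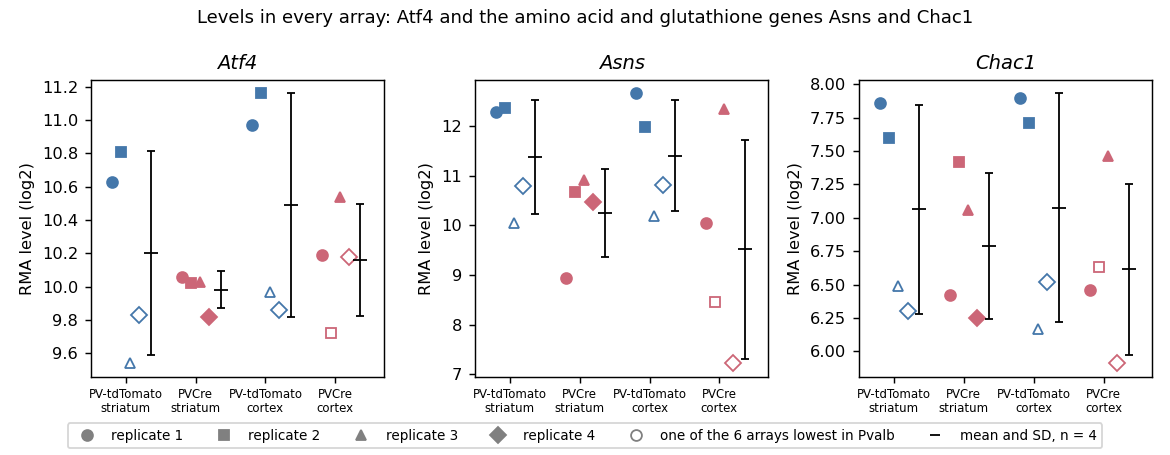
RMA level (log2) of Atf4, Asns and Chac1 in each of the 16 arrays, with group mean and SD (n = 4); open symbols are the 6 arrays lowest in Pvalb. PV-tdTomato replicates 1 and 2 lie above replicates 3 and 4 for all 3 genes in both regions, and the lines overlap.

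Region differences were few. Between PV-tdTomato striatum and cortex, 0 of 25 members passed the limma threshold, against 2.36% of all genes (1.76% higher in striatum and 0.604% lower), and 2 members had an unadjusted p under 0.05. In PVCre, 2 members (8%) were higher in striatum than in cortex, against 3.97% of all genes (2.9% higher and 1.06% lower). Arrays of the regions did not overlap for 1 member in PV-tdTomato (Bag3, higher), against 6.04% of all genes (3.76% higher and 2.28% lower). In PVCre they did not overlap for Hspb1, Hspb8, Dnajb4, Bag3 and Hspe1, all higher in striatum, and for Hsp90b1, lower, against 13.5% of all genes (6.02% higher and 7.47% lower). Both called members belong to the cytosolic group, and neither passed the threshold without the 6 arrays lowest in Pvalb. Hspb1 was 0.83 ± 0.16 higher in PVCre striatum (adjusted p = 0.00782), with its arrays at 7.63 to 8.39 above those of PVCre cortex at 6.92 to 7.22. Without the 6 arrays this difference was 0.84 ± 0.22 (adjusted p = 0.0869). In PV-tdTomato, Hspb1 did not pass the test between the regions (-0.01 ± 0.16, adjusted p = 0.999).

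Bag3 lay at 6.65, 6.59, 6.71 and 6.28 in PVCre striatum and at 6.22, 6.00, 5.86 and 6.12 in PVCre cortex, without overlap. Its difference of 0.50 ± 0.13 was barely past the threshold (limma adjusted p = 0.0482), was lost under 12 of 19 alternatives, and read 0.51 ± 0.16 without the 6 arrays (adjusted p = 0.156). In PV-tdTomato it lay at 6.52, 6.41, 6.08 and 6.08 in striatum and at 5.83, 6.04, 5.86 and 5.92 in cortex, again without overlap, and the difference of 0.36 ± 0.13 did not pass the test (adjusted p = 0.340). Leaving out any single PVCre array other than striatal replicate 4 ended the call in PVCre, with adjusted p of 0.0566 to 0.147.

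Hspb8, the small heat shock protein that works with Bag3, lay at 7.84, 7.94, 6.93 and 7.08 in PV-tdTomato striatum and at 7.28, 6.60, 6.47 and 6.25 in PV-tdTomato cortex. In PVCre it lay at 7.88, 7.53, 7.07 and 6.95 in striatum and at 6.20, 6.70, 6.36 and 6.03 in cortex. Striatal arrays tended to be the higher ones, without overlap in PVCre and with overlap in PV-tdTomato. The differences were 0.80 ± 0.28 in PV-tdTomato (limma adjusted p = 0.295) and 1.04 ± 0.28 in PVCre (adjusted p = 0.0594). The PVCre one passed the threshold with quantile normalization (adjusted p = 0.0437), array weights (0.00602) and only the arrays compared (0.0435). It also passed with the replicate block (adjusted p = 0.0109), which ties PVCre arrays by number, although same-numbered pairs had r from -0.29 to 0.69. Ependymal markers (5 genes) moved with the region in both lines: their mean lay at 9.07 to 10.60 in PV-tdTomato striatum and 5.93 to 5.98 in PV-tdTomato cortex, and at 10.82 to 12.36 and 6.43 to 7.15 in PVCre. All 5 were higher in striatum in each line, and their part in the region differences of Hspb1, Hspb8 and Bag3 was not tested. A test of whether line differences depended on the region (interaction) called 0 of 25 members, against 0.2% of all genes (0.15% higher and 0.0499% lower), and 1 member, Hspb1, had an unadjusted p under 0.05 (0.84 ± 0.23, adjusted p = 0.242).

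**Figure D4:**
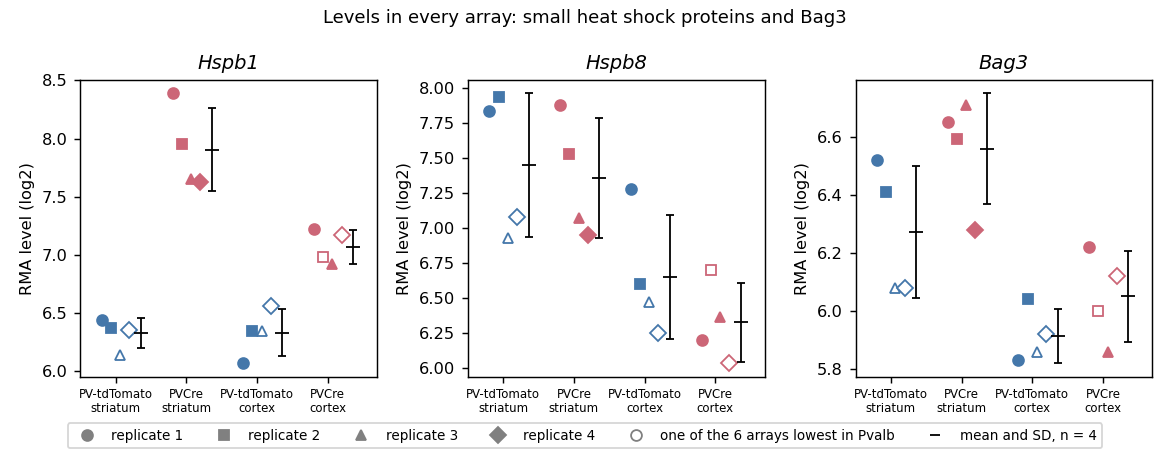
RMA level (log2) of the small heat shock proteins Hspb1 and Hspb8 and of Bag3 in each of the 16 arrays, with group mean and SD (n = 4); open symbols are the 6 arrays lowest in Pvalb. All PVCre striatal arrays lie above all PVCre cortical arrays for each gene.

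The wider pathways were counted from lists of genes outside the members. Of all genes tested, 18.1% rose and 35.4% fell in striatum, and 19.0% rose and 34.7% fell in cortex. With quantile normalization these shares were 22.0% and 26.2% in striatum and 24.8% and 25.3% in cortex, and the lists' counts are read against them. Of 31 other cytosolic chaperones and cofactors tested, 4 rose and 17 fell in striatum, and 4 rose and 14 fell in cortex, with medians of -0.46 and -0.39. The largest rise was that of Cryab, a small heat shock protein abundant in oligodendrocytes, at 2.61 ± 0.67 in striatum (limma adjusted p = 0.00453) and 2.19 ± 0.67 in cortex (adjusted p = 0.0127). Ahsa1, an activator of Hsp90, had the largest fall in striatum (-2.32 ± 0.31, adjusted p = 2.78e-05) and Dnajc5, a chaperone of synaptic vesicles, in cortex (-1.78 ± 0.31, adjusted p = 0.000264). With quantile normalization the counts were 4 risen and 11 fallen in striatum and 6 and 9 in cortex.

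Named after their values were seen, 6 tested subunits of the cytosolic chaperonin, Cct2, Cct3, Cct4, Cct5, Cct7 and Cct8, all fell in both regions, by -0.70 to -1.57, whereas Tcp1, the founding subunit, was not called (-0.12 ± 0.13 and 0.12 ± 0.13). The Hsp90 cofactors Stip1 (-1.47 ± 0.37 and -1.70 ± 0.37) and Cdc37 (-1.42 ± 0.25 and -1.17 ± 0.25) fell as well in both regions. Chordc1, a stress-inducible Hsp90 partner, rose in both (0.77 ± 0.25 in each).

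Of 9 other mitochondrial chaperones and proteases, 0 rose and 5 fell in each region. The largest falls were those of the protease Htra2 in striatum (-1.71 ± 0.24, limma adjusted p = 4.44e-05) and of the mitochondrial Hsp40 Dnaja3 in cortex (-1.18 ± 0.14, adjusted p = 1.10e-05). The list medians were -0.65 and -0.61, lower than the median of all genes, and Hspd1 had the same sign. With quantile normalization the counts were 0 and 4 in striatum and 1 and 3 in cortex.

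Of 28 other endoplasmic reticulum stress genes, 1 rose and 19 fell in striatum, and 0 rose and 16 fell in cortex, with medians of -0.70 and -0.56. Serpinh1, a collagen chaperone, was the one that rose (0.48 ± 0.19, limma adjusted p = 0.0487, with overlapping arrays). Wfs1, a membrane protein of calcium handling, fell by -2.53 ± 0.22 in striatum (adjusted p = 7.66e-07), and Atf6b, a relative of the sensor Atf6, had the largest fall in cortex, of 4.00-fold (adjusted p = 7.00e-07). Of the 3 sensors, chosen after their values were seen, Atf6 (-0.75 ± 0.15 and -0.65 ± 0.15) and Eif2ak3 (-1.05 ± 0.26 and -0.97 ± 0.26) fell in both regions, and Ern1 was not called (-0.04 ± 0.19 and -0.03 ± 0.19). With quantile normalization 1 rose and 12 fell in striatum and 1 rose and 9 fell in cortex. Wfs1 was also the 1 gene of these pathway lists called between regions, higher in PV-tdTomato striatum than cortex by 1.90 ± 0.22 (limma adjusted p = 0.000113).

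Of 27 other integrated stress response genes, 4 rose and 12 fell in striatum, and 4 rose and 13 fell in cortex. Atf3, a stress and immediate early factor that is also in the list of immediate early genes, rose by 4.64 ± 0.33 in striatum and 4.83 ± 0.33 in cortex (limma adjusted p = 1.87e-07 and 1.69e-07), from PV-tdTomato levels within or near the background range. The amino acid carrier Slc7a3 fell by -2.25 ± 0.37 and -2.49 ± 0.37 (adjusted p = 0.000178 and 8.17e-05). Among genes chosen after their values were seen, Ppp1r15a, which encodes the phosphatase subunit Gadd34 that ends eIF2 phosphorylation, rose by 1.84 ± 0.26 in each region, and the biosynthetic genes Aldh18a1 (-1.82 ± 0.14 and -1.77 ± 0.14) and Shmt2 (-1.52 ± 0.20 and -1.08 ± 0.20) fell. Atf3 and Ppp1r15a shared the direction of Ddit3, and Slc7a3, Aldh18a1 and Shmt2 that of Sesn2. All were named for the size of their difference or after their values were seen, so these shared directions carry no weight.

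Of 10 Nfe2l2 oxidative stress genes, 3 rose and 1 fell in striatum, and 5 rose and 1 fell in cortex. Ftl1, the light chain of ferritin, rose by 1.64 ± 0.41 and 1.74 ± 0.41 (limma adjusted p = 0.00385 and 0.00268). Keap1, the inhibitor of Nfe2l2, fell by -0.54 ± 0.11 and -0.44 ± 0.11 (adjusted p = 0.00118 and 0.00461). With quantile normalization 7 rose in striatum, 5 rose in cortex and Keap1 no longer passed the threshold.

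Markers of other cells moved with the line, in both directions. Of all genes, 18.1% rose and 35.4% fell in striatum, and 19.0% and 34.7% in cortex. Of 6 pyramidal neuron markers tested, 1 rose and 4 fell in PVCre striatum, and 1 rose and 5 fell in PVCre cortex. For 8 striatal projection neuron markers, 0 rose, and 5 fell in striatum and 3 in cortex. For 8 astrocyte markers, 0 rose, and 2 fell in striatum and 3 in cortex. The mean level of 13 microglial markers lay at 5.24 to 5.76 in the PV-tdTomato arrays and at 7.34 to 9.68 in the PVCre arrays, and 13 of 13 rose in each region. Of these, Csf1r lay at 4.82 to 5.40 in PV-tdTomato, within the background range, and at 7.24 to 10.33 in PVCre. Not all of the 13 were that low in PV-tdTomato. Cx3cr1 lay at 6.79 to 7.33 in striatum and 6.27 to 7.61 in cortex, above that range, and Ctss reached 7.18 in cortex. The mean of 11 immediate early genes lay at 8.35 to 9.48 in PV-tdTomato and at 10.79 to 11.84 in PVCre, and 9 of 11 rose in each region. Their part in the line differences of Ddit3, Hspb1, Hspa5 and the other members was not tested.

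Other marker lists differed within groups too. Oligodendrocyte markers (11 genes) had means of 12.50 to 13.04 in PV-tdTomato replicates 1 and 2 of both regions, 14.52 to 15.12 in replicates 3 and 4, and 14.57 to 15.55 in PVCre. In PVCre, 5 of the 11 rose in striatum and 8 in cortex, against 18.1% and 19.0% of all genes. Ddit3 levels in PV-tdTomato replicates 3 and 4 were 8.98 to 9.87 and Hspb1 levels 6.14 to 6.56. The part of oligodendrocytes in the line differences was not tested. Endothelial and mural markers (12 genes) had means of 7.16 to 9.34 in PVCre striatum and stayed below 7 in every array of the other 3 groups. PVCre striatum was also the group in which Hspb1 was highest. PVCre striatal replicate 1 had the highest mean of both that list (9.34) and Hspb1 (8.39). The part of vascular cells in the Hspb1 region difference was not tested.

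**Figure D5:**
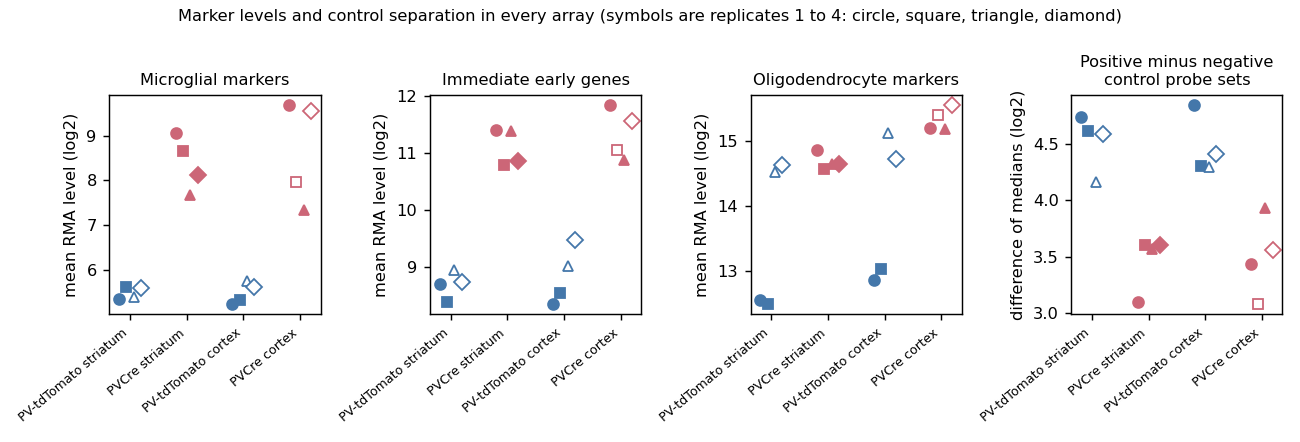
Mean RMA level (log2) of microglial, immediate early and oligodendrocyte marker lists, and the difference of the medians of positive and negative control probe sets (log2), in each of the 16 arrays; open symbols are the 6 arrays lowest in Pvalb. Microglial means are 5.24 to 5.76 in the PV-tdTomato arrays (blue) and 7.34 to 9.68 in the PVCre arrays (red), and control separation is lower in every PVCre array.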

How the data were processed

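Expression was measured on 16 arrays, 4 per group. The deposited values are log2 levels that the authors made by RMA; the submitters' processing notes also name Affymetrix Expression Console. Its version, and which arrays were normalized together, were not given in the sources used here. RMA can compress differences at low and at high levels. The table held 72688 probe sets, 6732 of them controls; of the 65956 transcript clusters, 30604 were annotated with 1 gene, 2146 with several and 33206 with none listed. Symbols of 827 clusters were updated, and 290 clusters on another chromosome than their gene's, or on none, were left out. The highest-mean cluster stood for a gene, and the 33.3% of genes with the lowest mean (under 5.53) were left out.

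All 16 arrays entered a single fit of group means (limma 3.58.1 under R 4.3.3; functions lmFit and eBayes). P-values were two-sided, adjusted by Benjamini-Hochberg over 20040 genes, with a threshold of 0.05, and errors of differences are standard errors. On simulated line effects in striatum (20040 genes), the test recovered 63% of 100 genes shifted by 1 log2 unit and 86% of 100 shifted by 2, with 7 false calls. Only these genes were changed, and the noise was independent between genes. In the data 53.5% of genes were called in striatum, so neither the shares recovered nor the false calls describe that comparison. Values in every array are given for up to 4 called members of each branch and line effect with the largest differences, and always for Hspa1a, Hspa5, Atf4 and Ddit3; Asns, Bag3, Hspb8 and the clusters with several genes were added after their values were seen. Of each pathway list, the largest rise and fall past the threshold in each region were named. The members, the gene lists and this rule were chosen with earlier results of these data known. The labels name no batch; one that coincided with the lines could not be separated from them. Replicates are pools, and nothing says that pools of a group came from separate days or litters, so the tests measure the spread among pools.

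Alternatives were 2 other filters, other scalings, another prior, another cluster per gene, array weights, only the arrays compared, a replicate block, leaving out the 6 arrays lowest in Pvalb, and leaving out each array in turn; keeping clusters with several genes, or on another or no chromosome, was chosen after seeing the data. The groups share the replicate numbers that their titles give; for PVCre cortex the descriptions give other numbers. Same-numbered PV-tdTomato arrays of both regions deviated together across genes (r = 0.58 to 0.76 in all 4 pairs). Striatal replicates 2 and 4, however, resembled cortical replicates 1 and 3 most. Same-numbered arrays of the other pairings ranged from -0.64 to 0.69. The main fit paired no arrays. The replicate block tied all same-numbered arrays, within a line for region effects and between lines for line effects. Whether same-numbered pools of the 2 regions share mice is not stated. Promoters and motifs came from RefSeq tables on GRCm38.p6. Tables and figures were made in Python 3.11.15 with pandas 2.3.3, numpy 2.4.6 and matplotlib 3.10.9.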

Additional observations from a re-analysis of the deposited data

Results flagged for a closer look

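Among 100 sets of 4 arrays (25 members in 4 groups), 4 held an array whose gap to the nearest of the others, over the whole range, was above Dixon's 95% critical value. Chance alone gives about 1 in 20 such sets. Hsph1 was at 12.77 in PVCre cortex replicate 3, against 12.38 to 12.42 in the other 3 arrays, and still below every PV-tdTomato array. Hmox1 was at 5.15 in PV-tdTomato striatum replicate 4, against 5.37 to 5.41, within the range of background probe sets. Hsp90b1 was at 16.11 in that same array, against 15.80 to 15.85. Dnajb9 was at 12.97 in PV-tdTomato striatum replicate 3, against 13.43 to 13.52.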

How the results depend on the processing

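No member called on the deposited scale changed direction under any of the alternatives run. For many of these alternatives the direction was fixed in advance. The filters, the other prior, only the arrays compared, the replicate block and the kept clusters left each member's difference as it was. No tested member had another single-gene cluster on its own chromosome, so another cluster per gene gave the same values. Ddit3, Hspb1, Hsph1, Hsp90b1 and Sesn2 passed the threshold in both regions under 20 alternatives, as did Hspa5 in striatum and Dnajb1 in cortex. With its cluster on no chromosome in its place, an alternative run for Ddit3 alone and chosen after seeing the data, Ddit3 did not pass (adjusted p = 0.105 in striatum and 0.148 in cortex). Members called numbered 10 to 12 in striatum and 8 to 11 in cortex when each array was left out in turn, 1 to 2 for the region effect in PVCre, and 0 for the region effect in PV-tdTomato and the interaction. For the region effect in PVCre, 1 member was called with no filter, with more low genes left out, and with clusters of several genes kept, 4 with quantile normalization, 6 with array weights and 0 without the 6 arrays lowest in Pvalb. For the region effect in PV-tdTomato, array weights called 2 members, Hspb8 and Bag3. With the replicate block, 10 members were called in striatum, 7 in cortex and 2 for the region effect in PVCre. For line effects this block tied pools of different mice by number alone. Such pairs had r from -0.44 to -0.08 in striatum and from -0.64 to 0.50 in cortex. The block ended the calls of Hsp90aa1 in striatum (adjusted p = 0.120), Hmox1 (0.0800) and Hspa5 (0.0950) in cortex and Bag3 (0.0514) in the PVCre region effect, and changed no other member's call except that of Hspb8, which passed in the PVCre region effect (0.0109). Of all genes, the region effect in PV-tdTomato called 473, and 303 with more low genes left out, 1599 with array weights, 282 with only the arrays compared and 1037 without the 6 arrays. That in PVCre called 795, and 2518 with array weights and 2084 with the block; leaving out each array in turn gave 509 to 822, with 509 without PVCre cortex replicate 2. The interaction called 40, and 130 with array weights, 130 with the block and 153 without the 6 arrays. Leaving out each array in turn gave 21 to 69 for the interaction: 69 without PV-tdTomato cortex replicate 3, 23 to 26 without PV-tdTomato striatum replicate 1 or 4 or cortex replicate 1 or 2, and 21 to 25 without PVCre striatum replicate 2 or 4 or cortex replicate 1, 2 or 4. The causes were not tested. Low members such as Trib3, and most Hmox1 arrays, were within the range of background probe sets, and 4 arrays per group limit the precision.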
